A study of Rattus norvegicus with 7 samples.

Results

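Transcripts of 8 genes grouped as myelin adhesion, junction and paranodal proteins were followed in cultured rat oligodendrocyte progenitor cells undergoing differentiation. The genes are Mag, Mog, Opalin, Cldn11, Nfasc, Cntn2, Omg and Plekhb1. They were taken by gene symbol from the deposited table of 32852 genes, each matched 1 row, and all 8 reached the mean normalised count of at least 10 that was asked of a tested gene. The 7 libraries fall into 3 from cells that received an siRNA directed at RNLTR12-int, a retroviral element carried in the rat's own DNA, and 4 from cells transfected with a control siRNA. All cells came from brains of wild-type (WT) rats at postnatal day 7, were plated at about 40000 per well of plates with 12 wells, received the siRNA with Lipofectamine RNAiMAX and spent 4 to 5 days in differentiating medium. The design sets these groups side by side to show what targeting RNLTR12-int does to transcript levels as progenitors mature. Levels of RNLTR12-int were not analysed here, and the knockdown is therefore unchecked. The labels call the libraries biological replicates but name no animal or culture for any of them, so each p-value is measured against the spread between samples alone, and that spread may be technical.

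Myelin of the central nervous system is a spiral of oligodendrocyte membrane, and its surface proteins hold that membrane to the axon, to itself and to the edges of each myelin segment. Mag, an immunoglobulin-family lectin, lies on the innermost membrane facing the axon, whereas Mog, also of the immunoglobulin family, lies on the outermost surface. Opalin is a transmembrane glycoprotein of oligodendrocytes, and Cldn11 forms the tight junction strands between myelin layers. Nfasc encodes a glial form that anchors the myelin loops at the paranode and a neuronal form at the node, and Cntn2 is a contactin of the juxtaparanode made by both glia and neurons. Omg is a lipid-anchored ligand of the Nogo receptor that neurons make too. Plekhb1 carries a pleckstrin homology domain and binds membranes from the inside.

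The 8 genes did not behave as one set. Mag, Mog, Opalin, Cldn11 and Nfasc were lower in every siRNLTR12-int library than in every control library, with log2 differences of -2.75 to -1.60 in the limma fit. Cntn2, Omg and Plekhb1 overlapped between the groups, with log2 differences of -0.39, 0.10 and -0.05. Groups in which all siRNLTR12-int libraries lay below all controls were found for 3.59% of the 18225 genes tested. In the authors' deposited table (DESeq2) Mag, Opalin, Cldn11 and Nfasc fell at an adjusted p under 0.05, 4 of the 8 genes, where 0.368% of genes with an adjusted p fell and 0.384% rose. With limma 0 of the 8 genes and 0% of all genes passed after adjustment over all genes. With edgeR too, 0 genes passed. At an unadjusted p under 0.05 limma had 5 of the 8 genes lower and 0 higher, beside 2.98% of all genes lower and 3.33% higher, and edgeR likewise had 5 lower, beside 3.21%.

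Recovered reads ranged from 31609908 to 48187822 in the siRNLTR12-int libraries and from 22523873 to 61803693 in the controls. Markers of the oligodendrocyte lineage were present in all 7 libraries, with Olig1 at 30602 to 50429.5 normalised counts in siRNLTR12-int libraries and 27410 to 42062 in controls. Progenitor markers were present as well, with mean log2 levels over 4 genes of 14.40 to 15.73 in siRNLTR12-int libraries and 14.20 to 15.52 in controls. Astrocyte markers were present too, at unequal levels. Mean log2 levels of 7 astrocyte markers were 15.31 in siRNLTR12-int replicate 1 and 15.16 and 14.94 in control replicates 1 and 2, against 13.23 to 13.43 in the other 4 libraries. That split cuts across both siRNA groups. Control replicate 2 stood apart from the other controls in Mag, Mog, Opalin, Cldn11 and Nfasc. In bulk RNA of this kind, fewer cells of a type and less RNA per cell cannot be told apart.

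The promoters of the genes were compared because several of the genes moved together over the libraries. RefSeq windows from 250 bases before to 50 after the start (build GRCr8, another build than the Rnor_6.0 named for the counts) were matched by symbol for 7 of the 8 genes, with 2 windows for Nfasc. The genes are Mag (chr1:95290995-95291294), Opalin (chr1:249858141-249858440), Cldn11 (chr2:114149490-114149789), Nfasc (chr13:46701115-46701414 and chr13:46627799-46628098), Cntn2 (chr13:46527976-46528275), Omg (chr10:64962001-64962300) and Plekhb1 (chr1:164425123-164425422), all on the minus strand. Mog was not in the table. Each window was searched on both strands for the heptamer CTGGCAC or CTGGTAC, the core recognised by the myelin regulator Myrf, and for ACAAAG, a core of Sox factors. The searched letters do not overlap each other in these windows. Below, from 5′ to 3′ on the strand of the gene, capitals mark a match to either core in the 4 windows that hold the Myrf core, and the window of Omg is shown as one without a match.
Mag: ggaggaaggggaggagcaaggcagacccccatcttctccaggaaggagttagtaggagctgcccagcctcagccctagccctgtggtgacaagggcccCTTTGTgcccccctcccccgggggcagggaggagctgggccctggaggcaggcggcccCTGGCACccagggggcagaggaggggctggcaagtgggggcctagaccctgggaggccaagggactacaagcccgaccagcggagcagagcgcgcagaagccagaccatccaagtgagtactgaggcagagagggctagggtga
Opalin: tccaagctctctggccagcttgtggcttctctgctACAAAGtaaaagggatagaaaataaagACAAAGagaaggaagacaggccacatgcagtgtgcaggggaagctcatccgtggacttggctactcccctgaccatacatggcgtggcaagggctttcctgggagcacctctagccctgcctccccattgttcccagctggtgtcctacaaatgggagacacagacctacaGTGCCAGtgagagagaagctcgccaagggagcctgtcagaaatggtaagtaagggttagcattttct
Cldn11: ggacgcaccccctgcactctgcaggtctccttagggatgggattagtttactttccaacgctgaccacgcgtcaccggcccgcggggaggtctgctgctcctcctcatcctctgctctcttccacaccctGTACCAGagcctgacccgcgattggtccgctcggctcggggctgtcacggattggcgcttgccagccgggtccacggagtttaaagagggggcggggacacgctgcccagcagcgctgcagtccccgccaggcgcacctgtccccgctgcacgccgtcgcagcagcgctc
Nfasc: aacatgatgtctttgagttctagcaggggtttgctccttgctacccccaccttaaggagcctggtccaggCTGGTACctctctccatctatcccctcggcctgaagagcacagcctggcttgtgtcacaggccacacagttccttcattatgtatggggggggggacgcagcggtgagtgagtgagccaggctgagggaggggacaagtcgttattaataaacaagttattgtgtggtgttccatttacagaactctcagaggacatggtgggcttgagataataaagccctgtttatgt
Omg: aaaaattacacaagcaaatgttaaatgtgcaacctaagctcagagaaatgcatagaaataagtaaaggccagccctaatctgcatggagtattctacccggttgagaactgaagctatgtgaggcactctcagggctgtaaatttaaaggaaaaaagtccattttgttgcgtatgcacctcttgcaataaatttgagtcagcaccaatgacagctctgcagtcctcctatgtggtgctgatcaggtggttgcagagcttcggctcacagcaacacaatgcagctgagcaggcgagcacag

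The Myrf core was found in 4 of the 8 windows, those of Mag, Opalin and Cldn11 and the first of Nfasc, against 6.78% of all 33469 windows of this length. Counted from the start, its first base lies at -94 in Mag, -17 in Opalin, -120 in Cldn11 and -180 in Nfasc, read on the opposite strand in Opalin and Cldn11. The Sox core was found in 2 of the 8 windows, Mag and Opalin, against 18.8% of all windows, and Opalin holds it at -215 and -188. The E-box CAGCTG, a site type of Olig factors, was found in Opalin, the other Nfasc window and Omg, against 15.1% of all windows. A match describes these letters only and is not a measured binding site.

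Mag (ENSRNOG00000021023), the adhesion protein that faces the axon, had 4555, 2491 and 2069.6 normalised counts in siRNLTR12-int replicates 1 to 3, against 11934, 67873.5, 10797 and 15670.0 in control replicates 1 to 4. All 3 siRNLTR12-int libraries lay below all 4 controls, and control replicate 2 was 4.33 times the next highest control. The log2 difference was -2.75 with a standard error of 0.66 and a 95% interval of -4.29 to -1.21 (limma, adjusted p = 0.647, unadjusted p = 0.00379). In the authors' deposited table Mag fell by 3.13 on the log2 scale (DESeq2 adjusted p = 0.00318). Mag was the gene of the set with the largest log2 difference in that fit. Without control replicate 2 the limma difference was -2.14 (adjusted p = 0.438). DESeq2 on the recovered reads still called Mag without that library (log2 -2.07, adjusted p = 8.75e-06). That DESeq2 fit called 0.392% of genes lower, and 4 of these 8. On the same reads edgeR did not call Mag (adjusted p = 0.501). Over all genes, limma and edgeR each called 0 without that library.

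Mog (ENSRNOG00000000775), the protein of the outermost myelin surface, had 263, 252 and 272 normalised counts in siRNLTR12-int replicates 1 to 3, against 588, 2556, 497 and 543 in control replicates 1 to 4. The siRNLTR12-int libraries were within 1.08 times of each other and all lay below the controls. Control replicate 2 was 4.34 times the next highest control. The log2 difference was -1.60 with a standard error of 0.56 and a 95% interval of -2.92 to -0.29 (limma, adjusted p = 0.712). In the authors' deposited table the log2 value of Mog was -1.996 and did not pass (DESeq2 adjusted p = 0.088). Without control replicate 2 the gene did pass in DESeq2 on the recovered reads, with a smaller difference (log2 -1.05, adjusted p = 1.08e-07). It did not pass in limma or edgeR without that library (adjusted p = 0.342 and 0.393). The 3 remaining controls then stood at 543 ± 45.6 (SD, n = 3), against 262 ± 10.3 (SD, n = 3) in siRNLTR12-int libraries in the same units.

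Opalin (ENSRNOG00000022386), the glycoprotein of oligodendrocyte membranes, had 67.6, 17.7 and 26.6 normalised counts in siRNLTR12-int replicates 1 to 3, against 236, 848, 93.1 and 74.5 in control replicates 1 to 4. The groups did not overlap, but siRNLTR12-int replicate 1 came close to control replicate 4. These counts rest on 74, 14 and 33 reads in siRNLTR12-int replicates 1 to 3, against 247, 1169, 108 and 42 reads in control replicates 1 to 4. The log2 difference was -2.57 with a standard error of 0.88 and a 95% interval of -4.64 to -0.49 (limma, adjusted p = 0.712), the widest interval of the 8. In the authors' deposited table Opalin fell by 3.07 on the log2 scale (DESeq2 adjusted p = 0.0481). That call was lost without control replicate 2, where the log2 value was -1.85 (DESeq2 on the recovered reads, adjusted p = 0.346).

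Cldn11 (ENSRNOG00000010263), the claudin of the myelin tight junctions, had 4467, 4509 and 3769 normalised counts in siRNLTR12-int replicates 1 to 3, against 9943, 52506, 13929.6 and 19085 in control replicates 1 to 4. The siRNLTR12-int libraries lay within 1.196 times of each other and below every control. The log2 difference was -2.19 with a standard error of 0.52 and a 95% interval of -3.41 to -0.97 (limma, adjusted p = 0.647, unadjusted p = 0.00363). In the authors' deposited table Cldn11 fell by 2.49 on the log2 scale (DESeq2 adjusted p = 0.00394). Without control replicate 2 the DESeq2 value was -1.75 (adjusted p = 1.42e-06). Limma and edgeR did not call Cldn11 without that library (adjusted p = 0.437 and 0.489).

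Nfasc (ENSRNOG00000030515), which encodes the paranodal anchor, had 30104, 26095 and 24898 normalised counts in siRNLTR12-int replicates 1 to 3, against 47452, 225185, 64277 and 96509 in control replicates 1 to 4. Again no siRNLTR12-int library reached the lowest control. The log2 difference was -1.74 with a standard error of 0.49 and a 95% interval of -2.90 to -0.59 (limma, adjusted p = 0.661). In the authors' deposited table Nfasc fell, with a log2 value of -2.003 (DESeq2 adjusted p = 0.0208), and without control replicate 2 the DESeq2 value was -1.36 (adjusted p = 0.00305). Limma and edgeR did not call Nfasc without that library (adjusted p = 0.610 and 0.693). The table sums the glial and neuronal forms of this gene, and summed counts of 10 neuron markers were 3055 to 5924 in siRNLTR12-int libraries and 3095 to 6127 in controls, with none of the 10 at 0 in any library. The part of neurons in the Nfasc result was not tested.

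The DESeq2 calls on these genes depended on siRNLTR12-int replicates 2 and 3, but not on replicate 1. Without siRNLTR12-int replicate 2 or without replicate 3, 0 of the 8 genes passed, with adjusted p-values of 0.14 and 0.16 for Mag and 0.101 and 0.16 for Cldn11 (DESeq2 on the recovered reads). Over all genes those fits made 9 and 15 calls, against 141 with all 7 libraries. Their log2 values were -3.00 and -2.91 for Mag and -2.53 and -2.41 for Cldn11, against -3.13 and -2.49 with all 7 libraries. Without siRNLTR12-int replicate 1, 4 of the 8 genes passed and 520 genes were called in all. Without control replicate 4, Nfasc did not pass (adjusted p = 0.114).

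Cntn2 (ENSRNOG00000009033), the contactin of the juxtaparanode, had 153, 144 and 156 normalised counts in siRNLTR12-int replicates 1 to 3, against 130.1, 326, 190.5 and 189.8 in control replicates 1 to 4. Control replicate 1 lay below all 3 siRNLTR12-int libraries, so the groups overlapped. The log2 difference was -0.39 with a 95% interval of -1.08 to 0.31 (limma, adjusted p = 0.935), and the authors' deposited table gave -0.47 (DESeq2 adjusted p = 0.963). Without control replicate 2 the limma difference was -0.15.

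Omg (ENSRNOG00000014107), the Nogo receptor ligand, had 3486, 11460.2 and 10304 normalised counts in siRNLTR12-int replicates 1 to 3, against 3343, 6093, 10284 and 10935 in control replicates 1 to 4. The libraries sorted by astrocyte marker level rather than by siRNA, with the 3 astrocyte-rich libraries at 3343 to 6093 and the other 4 at 10284 to 11460.2. The log2 difference between siRNA groups was 0.10 with a 95% interval of -1.19 to 1.40 (limma, adjusted p = 0.996). The interval includes a fall of about 1 log2 unit and a rise of up to 1.40, so changes of these sizes are not excluded. Olig2, a transcription factor of the oligodendrocyte lineage, was low in the same libraries, with 10733, 26395 and 24481 normalised counts in siRNLTR12-int replicates 1 to 3, against 9854, 13716, 22134 and 22372 in control replicates 1 to 4.

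Plekhb1 (ENSRNOG00000018627), the pleckstrin homology domain protein, had 4986, 2366 and 2460.5 normalised counts in siRNLTR12-int replicates 1 to 3, against 4214, 4344, 2158 and 2613 in control replicates 1 to 4. It ran opposite to Omg over the libraries, being highest in the 3 astrocyte-rich ones, at 4214 to 4986, and 2158 to 2613 in the other 4. The log2 difference between siRNA groups was -0.05 with a 95% interval of -0.88 to 0.78 (limma, adjusted p = 0.998). Summed counts of the 7 astrocyte markers were 587441, 114602 and 111321 in siRNLTR12-int replicates 1 to 3, against 529492, 470870, 119774 and 133739 in control replicates 1 to 4. None of the 7 was at 0 in any library, and the part of astrocytes in the Plekhb1 and Omg levels was not tested. Microglia markers divided the same libraries, with a mean log2 level over 7 genes of 7.85, 5.13 and 5.20 in siRNLTR12-int replicates 1 to 3, against 8.49, 7.13, 5.26 and 6.11 in control replicates 1 to 4. Their part was not tested either.

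**Figure D1:**
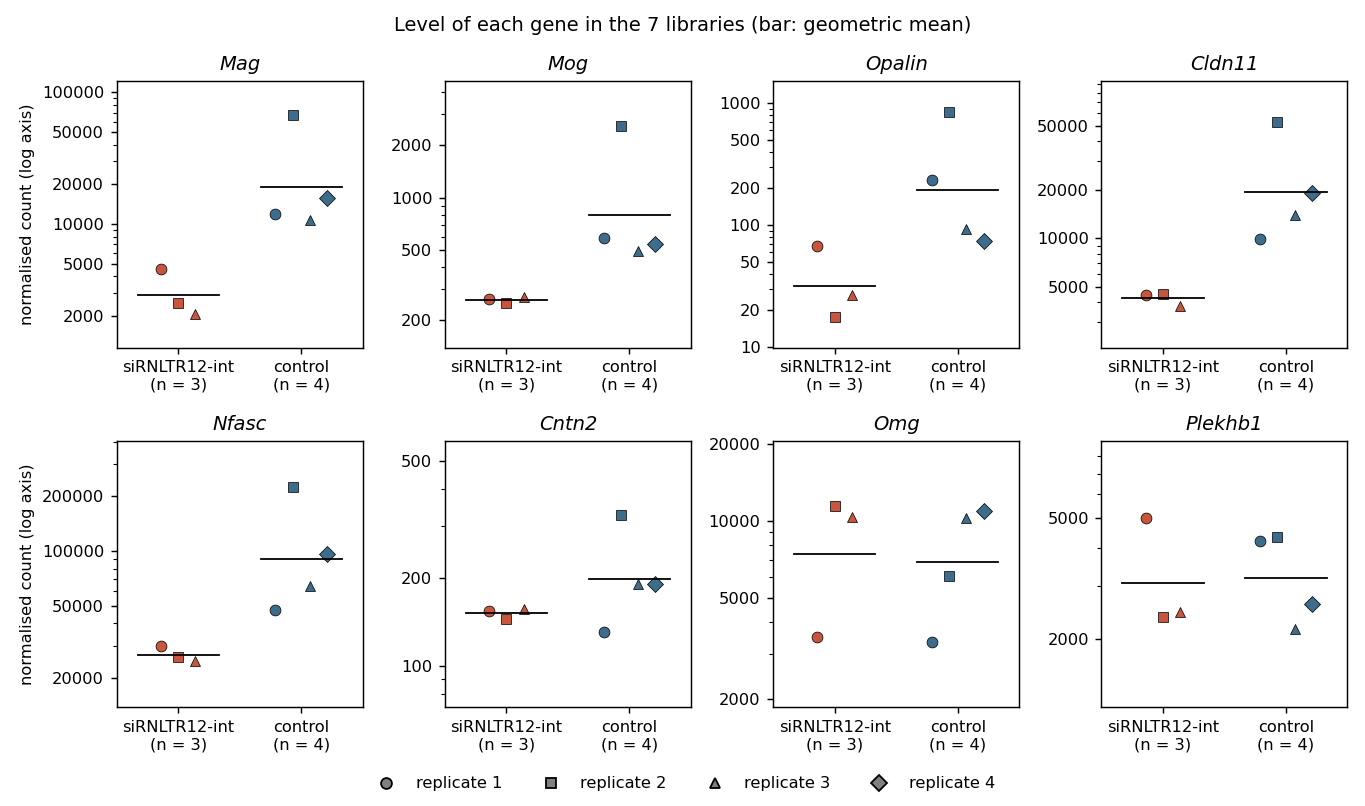
Normalised count (log axis) of each gene in the 3 siRNLTR12-int libraries (red) and the 4 control libraries (blue), with the replicate number as the marker shape and the geometric mean as a bar. In Mag, Mog, Opalin, Cldn11 and Nfasc no siRNLTR12-int library reaches the lowest control, while Cntn2, Omg and Plekhb1 overlap.

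The lower levels of Mag, Mog, Opalin, Cldn11 and Nfasc were present in both kinds of culture. In the 4 libraries low in astrocyte markers, 2 per group, log2 differences were -2.52 for Mag, -0.99 for Mog, -1.89 for Opalin, -1.98 for Cldn11 and -1.63 for Nfasc. All 5 passed in a limma fit of these 4 libraries alone (adjusted p = 0.00757 to 0.0253), in which 2.67% of all genes were called lower and 4.02% higher. In the same 4 libraries Cntn2, Omg and Plekhb1 had log2 differences of -0.34, 0.04 and 0.02, and none of the 3 passed (limma adjusted p = 0.253 to 0.922). This fit has 2 libraries per group and so few degrees of freedom among samples. Its 2 groups are also the most alike pairs of libraries in the series. The median chi-square per gene was 1.27 for siRNLTR12-int replicates 2 and 3 and 2.69 for control replicates 3 and 4. Other pairs had 2.80 to 24.2. Its p-values rest on the spread within these pairs, and whether either pair shares a preparation was not tested. In the 3 astrocyte-rich libraries, with a single siRNLTR12-int library and no test, the differences were -2.64 for Mag, -2.22 for Mog, -2.71 for Opalin, -2.35 for Cldn11 and -1.78 for Nfasc. Control replicate 2 is one of these 3. With array weights over all 7 libraries, limma called Mag, Cldn11 and Nfasc, beside 2.1% of all genes lower.

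**Figure D2:**
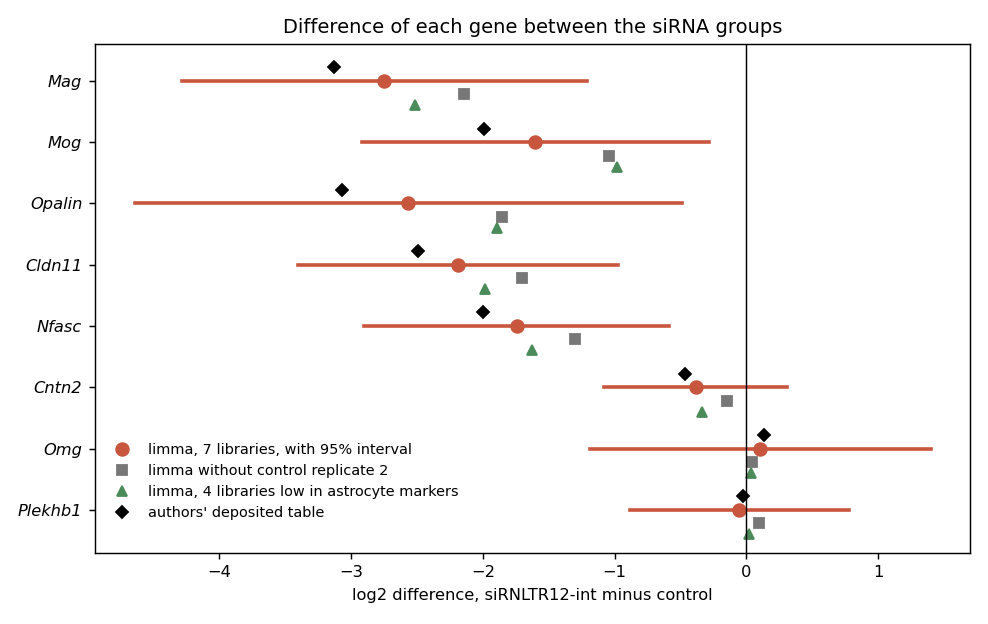
Log2 difference of each gene, siRNLTR12-int minus control, from limma with its 95% interval (red), from limma without control replicate 2 (grey), from the 4 libraries low in astrocyte markers (green) and from the authors' deposited table (black). Mag, Mog, Opalin, Cldn11 and Nfasc lie left of 0 in each of the 4, and intervals of Cntn2, Omg and Plekhb1 cross 0.

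How far the other genes departed from Mag was tested on their log2 ratio to Mag in the same library. Plekhb1 had ratios of 0.13, -0.07 and 0.25 in siRNLTR12-int replicates 1 to 3, against -1.50, -3.97, -2.32 and -2.58 in control replicates 1 to 4. Its ratio was higher in every siRNLTR12-int library, by 2.70 (limma adjusted p = 0.00434, exact permutation p = 0.0286, two-sided, the smallest that 35 splits allow). The ratio of Omg was higher by 2.85 (limma adjusted p = 0.00433), with overlapping groups (exact permutation p = 0.114), and that of Cntn2 by 2.36 without overlap (limma adjusted p = 0.0128, exact permutation p = 0.0286). Nearly every gene gave such a result, since 95.6% of all genes had a higher ratio at an adjusted p under 0.05 and 0.0165% a lower one, and 91.4% had a higher ratio without overlap. These calls are therefore nothing particular to the 3 genes. All these ratios share the values of Mag and therefore its error. Without siRNLTR12-int replicate 3 none of the 7 ratios passed (limma adjusted p = 0.0507 for Omg and Plekhb1 and 0.082 for Cntn2), and without replicate 2 the call on Cntn2 was lost (0.0626). A linear model without moderation, in which 86% of genes had a higher ratio at an adjusted p under 0.05, called Mog, Nfasc, Cntn2 and Plekhb1.

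None of the other lower genes passed the limma threshold for a difference from Mag with all 7 libraries. The ratio to Mag was higher by 1.15 in Mog (95% interval -0.61 to 2.90) and by 1.004 in Nfasc (-0.59 to 2.60), neither past the limma threshold (adjusted p = 0.203 and 0.219). Without control replicate 2 the Mog ratio did pass and the Nfasc ratio did not (limma adjusted p = 0.0356 and 0.081). Neither ratio overlapped between the groups, the siRNLTR12-int libraries being the higher (exact permutation p = 0.0286 each, of 7 ratios compared). That sets neither gene apart, since 91.4% of all genes had a higher ratio without overlap. Cldn11 and Opalin differed from Mag by 0.56 (95% interval -1.09 to 2.21) and 0.18 (-1.70 to 2.06), with overlapping groups (limma adjusted p = 0.509 and 0.851). These intervals are wide, and differences of more than 1 log2 unit in either direction remain within them. Their width reflects the moderated fit, which draws on the spread of all genes' ratios, each holding Mag. Standard errors in that fit were 0.84 for Cldn11 and 0.96 for Opalin, against 0.33 and 0.57 without moderation. For Mog and Nfasc they were 0.90 and 0.81, against 0.33 and 0.34. The limma intervals and non-calls therefore do not measure the spread of these ratios themselves.

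Likeness over the 7 libraries was measured as the root mean square difference between log2 profiles, each centred on its own mean. Cldn11 and Nfasc were the closest pair of the 8 genes, at 0.24, followed by Mog and Nfasc at 0.36. Mag was nearest to Cldn11 at 0.46, and Opalin to Mag at 0.64. Cntn2 was nearest to Plekhb1 at 0.57, and Omg lay 0.78 or more from every other member, with Opalin farthest at 2.18. The Opalin profile departed from the rest of the lower genes in the controls, where its centred value was 1.39 in control replicate 1 and -0.27 in control replicate 4, while Cldn11 had -0.02 and 0.92 in the same libraries.

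**Figure D3:**
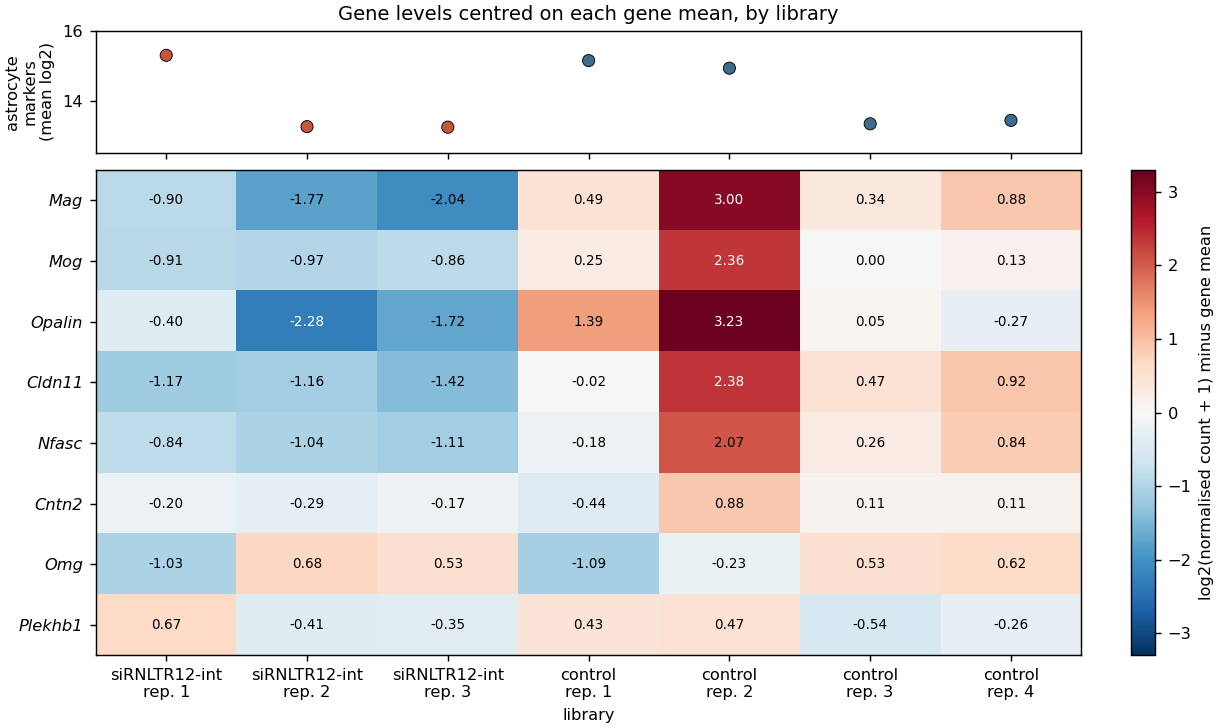
Centred log2(normalised count + 1) of each gene in each library (lower panel, one row per gene, red above and blue below its mean) under the mean log2 level of 7 astrocyte markers (upper panel, an axis that does not start at 0). Control replicate 2 holds the highest values of Mag, Mog, Opalin, Cldn11, Nfasc and Cntn2, from 0.88 to 3.23, while Omg and Plekhb1 follow the upper panel in opposite directions.

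Outside the 8 genes, the profiles most like theirs were sought among 12199 other genes with a symbol and a mean normalised count of at least 100. Nearest to Mag were Mbp, myelin basic protein, at 0.11, and Gjc3, a connexin, at 0.19. Nearest to Nfasc were Dusp15, a phosphatase, at 0.07 and Stmn4, a microtubule regulator, at 0.11, and nearest to Cldn11 were Tmem151a at 0.18 and Ppp2r2c, a phosphatase subunit, at 0.19. Mog had Hhip, a hedgehog-binding protein, at 0.15 and Mcam, a cell adhesion molecule, at 0.21. Opalin had no near neighbour, with Ermn, a cytoskeletal protein of myelin, and the receptor Gpr37 both at 0.43. Nearest to Cntn2 were Lrrc28 at 0.08 and Phactr1, an actin regulator, at 0.10. Omg had Shisa7 and B3gat2, a glucuronyltransferase, at 0.09 and 0.10, and Plekhb1 had the glycolytic enzyme Eno1 and the biliverdin reductase Blvrb, both at 0.06. With 7 points per profile these distances are a description.

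**Figure D4:**
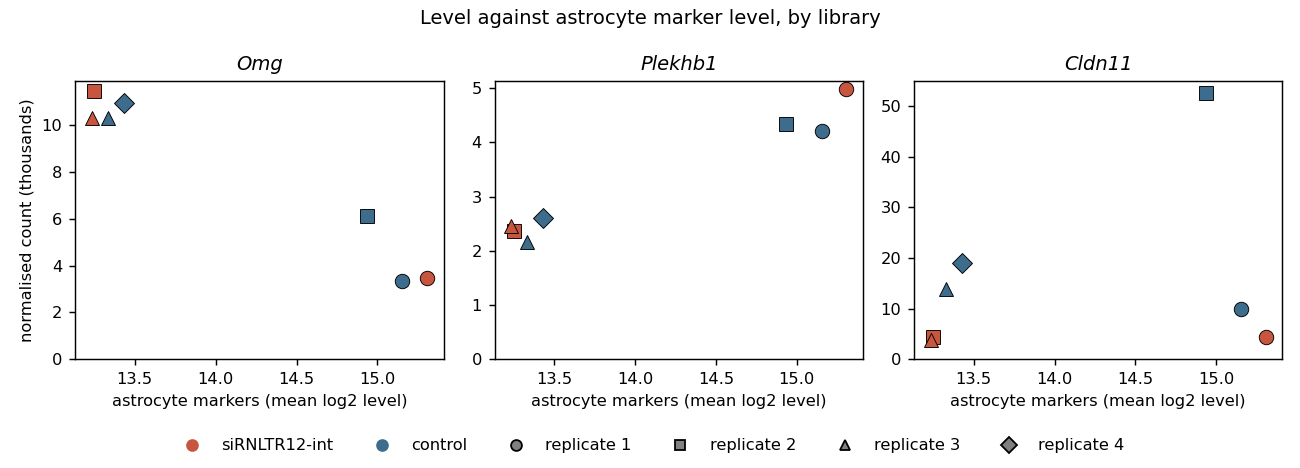
Normalised count of Omg, Plekhb1 and Cldn11 against the mean log2 level of 7 astrocyte markers, with siRNLTR12-int libraries in red and controls in blue. Omg is at 10284 or more in the 4 libraries at the left and 6093 or less in the 3 at the right, Plekhb1 runs the other way, and Cldn11 separates by siRNA at both sides.

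Among the partners of these proteins, most genes showed little difference. Of 18 axonal and glial partners and scaffold proteins of the node and paranode, 0 passed with limma, and before adjustment 2 were lower and 0 were higher (p under 0.05). The median log2 difference was -0.25, beside 0.006 over all genes tested. Hapln2, a link protein of the nodal matrix, had 29.2, 7.6 and 15.3 normalised counts in siRNLTR12-int replicates 1 to 3, against 58.4, 169, 66.4 and 56.8 in control replicates 1 to 4, and the authors' deposited table has it falling, with a log2 value of -2.33 (DESeq2 adjusted p = 0.0235). That call was lost without control replicate 2 (DESeq2 on the recovered reads, log2 -1.78, adjusted p = 0.093). Ank3, the ankyrin that binds neurofascin, had 2847, 4562 and 4405 in siRNLTR12-int libraries, against 5019, 21112, 7254 and 9308 in controls, and did not pass (log2 -1.25, limma adjusted p = 0.712; -0.86 without control replicate 2). Cntnap2, the axonal partner of Cntn2, had a log2 difference of -1.48 with overlapping groups (limma adjusted p = 0.89).

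Of 18 other tight junction genes listed, 16 were tested and 0 passed with limma, and before adjustment none was lower and 2 were higher (p under 0.05), with a median of -0.05. Cldn1, another claudin, had 197, 265 and 178 normalised counts in siRNLTR12-int replicates 1 to 3, against 126, 31.2, 58.6 and 24.8 in control replicates 1 to 4. These groups did not overlap, as was the case in this direction for 4.09% of all genes, but Cldn1 did not pass (log2 2.08, limma adjusted p = 0.661). The authors' deposited table gave it 1.82 (DESeq2 adjusted p = 0.0981). Tspan3, a tetraspanin that associates with Cldn11, averaged 10017 ± 211 (SD, n = 3) in siRNLTR12-int libraries and 12501 ± 2031 (SD, n = 4) in controls, with every siRNLTR12-int library below every control (limma adjusted p = 0.815).

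Other adhesion molecules, and the Nogo receptor pathway to which Mag and Omg are ligands, held no gene that passed with limma. Of 16 further adhesion genes none was lower and 1, Alcam, was higher before adjustment (p under 0.05), and the median was -0.15. Alcam, an immunoglobulin-family adhesion molecule, averaged 7261 ± 438 (SD, n = 3) normalised counts in siRNLTR12-int libraries and 5933 ± 706 (SD, n = 4) in controls, without overlap (limma adjusted p = 0.772). Lsamp and Cadm4, which act in neural and myelin adhesion, had log2 differences of -0.32 and -0.31 (limma adjusted p = 0.895 each). Of 14 genes of the Nogo receptor pathway none was lower and 2, Lingo1 and Lrp1, were higher before adjustment, with a median of 0.01. Lingo1, a co-receptor, differed by 0.48 with overlapping groups and Lrp1, an endocytic receptor that binds Mag, by 0.34 without overlap, whereas Rtn4, which encodes Nogo, differed by -0.35 (limma adjusted p = 0.712, 0.772 and 0.796).

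Regulators of the lineage and genes of compact myelin held further genes that were lower. Of 14 lineage regulators limma gave 5 lower and 0 higher before adjustment (p under 0.05) and 0 after it, with a median of -0.31, and 3 fell in the authors' deposited table. Myrf, which activates myelin genes, had 7356, 7661 and 7996 normalised counts in siRNLTR12-int replicates 1 to 3, against 11417, 45149, 16995 and 26328 in control replicates 1 to 4, and the authors' deposited table has it falling, with a log2 value of -1.70 (DESeq2 adjusted p = 0.0267). Myrf still passed without control replicate 2 (DESeq2 on the recovered reads, log2 -1.25, adjusted p = 0.0307). St18 and Nkx6-2, both transcription factors, had limma log2 differences of -1.93 and -1.91 (adjusted p = 0.647 each). The authors' deposited table has both falling (log2 -2.19 and -2.07, DESeq2 adjusted p = 0.00876 and 0.0140). Both still passed without control replicate 2 (DESeq2 on the recovered reads, log2 -1.50 and -1.52, adjusted p = 5.50e-07 and 0.00968). Sox10, a factor that activates myelin genes, had 8037, 27505 and 28089 in siRNLTR12-int libraries, against 8318, 29794, 31034 and 38713 in controls, with overlapping groups (log2 -0.35, limma adjusted p = 0.985). Of 7 compact myelin genes limma gave 5 lower and 1 higher before adjustment and 0 after it, with a median of -2.28. Mbp and Mobp, which build compact myelin, had log2 differences of -2.63 and -3.38 (limma adjusted p = 0.647 each), and in both control replicate 2 was the highest library. The authors' deposited table has both falling (DESeq2 adjusted p = 0.00236 each). Without control replicate 2 both still passed with DESeq2 on the recovered reads (log2 -2.02 and -2.48, adjusted p = 5.27e-06 and 0.00105). In limma and edgeR fits without that library 0 genes passed, so Myrf, St18, Nkx6-2, Mbp and Mobp did not pass there.

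**Figure D5:**
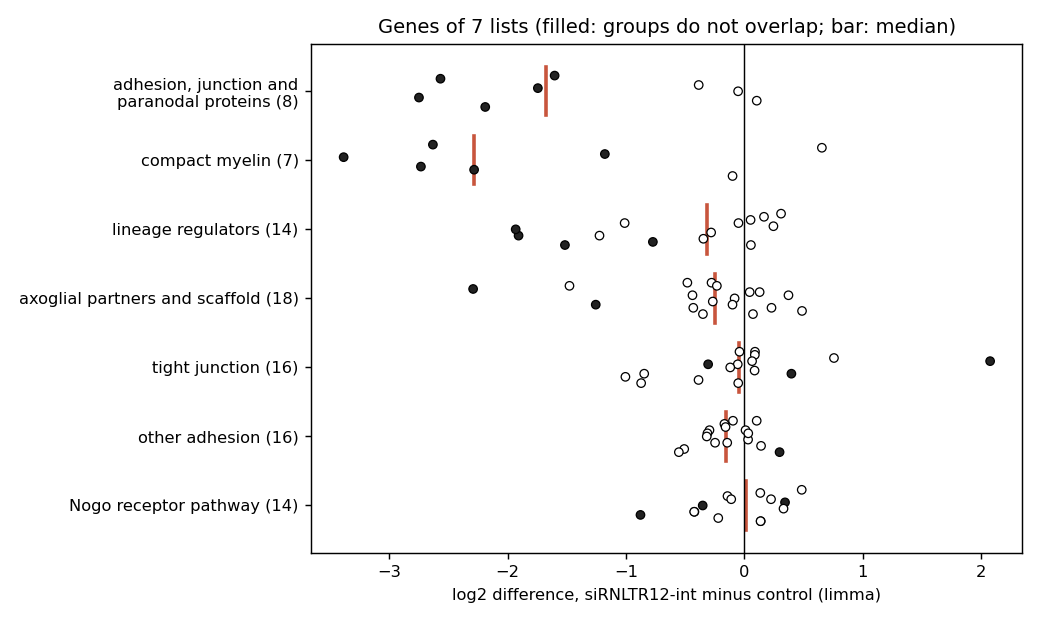
Limma log2 difference, siRNLTR12-int minus control, of each tested gene in 7 lists (number tested in brackets), filled where the groups do not overlap, with the median as a red bar. Medians are -1.67 for the 8 genes and -2.28 for compact myelin, and -0.31 to 0.01 for the other 5 lists.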

How the data were processed

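Libraries were strand-specific and sequenced from both ends after removal of ribosomal RNA, per the labels' protocols. Salmon, DESeq2 and the build Rnor_6.0 appear in the submitters' processing notes with no version given. The authors deposited a signal per gene and library (normalised counts) and a comparison table with log2 fold changes, a test score and p-values, per the file headers. Dividing by the smallest step of a library turned 100% of its values into whole reads, to within 0.01 of a step. Opalin and Cntn2 rest on the fewest reads, 14 to 1169 and 107 to 449 per library, and so have the largest counting errors of the 8 genes.

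Tests used limma 3.58.1 (two-sided, moderated with a trend) on log2(normalised count + 1) over 18225 genes with a mean of at least 10, Benjamini-Hochberg adjustment and a threshold of 0.05. This scale understates changes of low genes. Alternatives were count models on the recovered reads (edgeR 4.0.16, DESeq2 1.42.0), other pseudocounts, filters and scalings, array weights, a replicate block, an astrocyte covariate and leaving out libraries; those added after the data were seen were DESeq2 and edgeR without single libraries, an unmoderated fit of ratios to Mag, and genes of the lists without control replicate 2. Besides the 8 genes, the text names the 3 genes with the smallest limma p of each list and the 2 nearest profiles; other genes named were chosen after their values were seen, and some results under this rule are not reported here. The genes and lists were chosen with earlier results of these data known. The functions were tested on simulated data. All pairs of libraries differed by more than resampling of reads would give (lowest median chi-square 1.27 per gene, against 0.455 for resampling alone).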

Additional observations from a re-analysis of the deposited data

Results flagged for a closer look

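Control replicate 2 lay far from the other 3 controls in Mag, where its gap to the nearest control was 0.915 of the whole range of the group, and in Mog, where it was 0.956, both past Dixon's critical value for 4 samples. Chance alone passes that value in about 1 of 20 groups of normally distributed values, and all 8 genes were screened. The screen used normalised counts and was not run on the log2 scale of the tests. In Opalin, Cldn11, Nfasc and Cntn2 the same library was highest, with values of 0.791, 0.785, 0.724 and 0.692, short of that value.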

How the results depend on the processing

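No alternative run turned the direction of Mag, Mog, Opalin, Cldn11, Nfasc or Cntn2. The count of the 8 genes called was 0 in limma and edgeR, 4 with DESeq2 on the recovered reads, 3 under array weights, 5 when only the 4 astrocyte-poor libraries were used, and 0 to 5 when single libraries were left out (0 in every limma fit of this kind, the DESeq2 fits of it having been chosen after seeing the data). Over all genes the counts were 141, 839 and 1218 in those 3 settings, and 0 to 552 without single libraries. Ratios to Mag that passed numbered 3, with 6 under array weights, 5 in the 4 libraries, and 0 to 4 without single libraries; an unmoderated model called Mog, Nfasc, Cntn2 and Plekhb1. The sign of Omg turned with the astrocyte covariate (-0.12) and without single libraries (-0.24 to 0.65), and that of Plekhb1 with the covariate (0.091), in the 4 libraries (0.023) and without single libraries (-0.47 to 0.16). The Opalin ratio to Mag turned with array weights (-0.36), the replicate block (-0.17) and without single libraries (-0.17 to 0.51). The cause of these differences was not tested. Replicate numbers were not taken as pairs, since same-numbered libraries did not all deviate alike. Correlations of their deviations over genes were 0.746, -0.191 and 0.632 for replicates 1 to 3. Control replicate 1 was also closer to siRNLTR12-int replicate 1 (median chi-square 2.80) than to the other controls (9.79 to 14.6). A shared preparation of same-numbered libraries was not tested. With the replicate block 0 of the 8 genes passed and 2 ratios to Mag did. Opalin rests on 14 to 74 reads in siRNLTR12-int libraries and 42 to 1169 in controls, where its normalised counts also spread 11.4-fold between libraries.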
